A study of Mus musculus with 18 samples.

Results

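The GIMAP genes (GTPases of the immunity-associated protein family) were examined in mouse CD4 T cells that carry wild-type or mutant Foxp3. All 8 listed members, Gimap1, Gimap3, Gimap4, Gimap5, Gimap6, Gimap7, Gimap8 and Gimap9, were measured among 18193 genes, by 11 probe sets that the chip annotation assigns to a single gene. Where a gene had several probe sets, the one with the largest variance over all arrays represented it, and the others are given beside it. The series holds 18 Affymetrix arrays in 7 groups of CD4 T cells freshly sorted from lymph nodes and spleen of B6;129 mice, for which the labels give no age. Every mouse was heterozygous at Foxp3, with a wild-type allele tagged by GFP and another allele tagged by human CD2 (hCD2). From mice whose hCD2 allele was wild type came conventional T cells negative for both reporters (Tconv, 2 arrays), GFP+ regulatory T (Treg) cells (WT GFP, 2 arrays) and hCD2+ Treg cells (WT hCD2, 2 arrays, numbered 3 and 4). From mice whose hCD2 allele was A384T came the hCD2+ mutant Treg cells (A384T, 3 arrays) and the GFP+ wild-type Treg cells (WT GFP of A384T mice, 3 arrays). Treg cells with I363V or R397W (3 arrays each) were the hCD2+ cells of mice with those alleles. Mutant cells therefore always came from animals that also had wild-type Treg cells. The labels do not say whether arrays of a group are separate animals, so p-values measure the spread between these samples.

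GIMAP proteins are small GTPases of lymphocytes that sit on intracellular membranes and are best known for keeping mature T cells alive. Loss of Gimap5 in mice and rats leads to a severe shortage of peripheral T cells, and loss of Gimap1 removes mature T and B cells. Members have been linked to proteins of the Bcl2 family, which decide between survival and apoptosis, and Gimap6 to the autophagy proteins of the ATG8 family. In the gene table used here (GRCm38.p6) the family forms an unbroken block on chromosome 6, in the order Gimap8, Gimap9, Gimap4, Gimap6, Gimap7, Gimap1, Gimap5 and Gimap3, with 0 other protein-coding genes between them.

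Promoters of 3 members are shown, since the called differences lie in Gimap7, Gimap1 is its neighbour, and Gimap3 alone holds the full forkhead sequence searched. They are RefSeq windows from 250 bases before to 50 bases after the annotated start. They lie at chr6:48718371-48718670 on the plus strand for Gimap7, chr6:48738797-48739096 on the plus strand for Gimap1 and chr6:48770802-48771101 on the minus strand for Gimap3. Capitals mark matches to RUNX (TGTGGT, which reads ACCACA on the other strand) and to forkhead sequences (TGTTTAC, or TGTTTNC with a free base, which includes TGTTTAC).
Gimap7: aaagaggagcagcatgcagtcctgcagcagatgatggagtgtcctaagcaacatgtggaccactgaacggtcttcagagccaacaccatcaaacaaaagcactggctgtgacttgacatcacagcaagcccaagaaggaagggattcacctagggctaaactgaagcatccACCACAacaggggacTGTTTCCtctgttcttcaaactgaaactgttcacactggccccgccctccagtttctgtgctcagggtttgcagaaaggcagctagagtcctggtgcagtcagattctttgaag
Gimap1: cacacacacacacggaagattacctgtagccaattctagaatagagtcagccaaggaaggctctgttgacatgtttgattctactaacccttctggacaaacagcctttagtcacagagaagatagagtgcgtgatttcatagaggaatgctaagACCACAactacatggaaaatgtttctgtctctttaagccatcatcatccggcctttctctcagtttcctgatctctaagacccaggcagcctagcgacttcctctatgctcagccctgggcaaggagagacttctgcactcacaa
Gimap3: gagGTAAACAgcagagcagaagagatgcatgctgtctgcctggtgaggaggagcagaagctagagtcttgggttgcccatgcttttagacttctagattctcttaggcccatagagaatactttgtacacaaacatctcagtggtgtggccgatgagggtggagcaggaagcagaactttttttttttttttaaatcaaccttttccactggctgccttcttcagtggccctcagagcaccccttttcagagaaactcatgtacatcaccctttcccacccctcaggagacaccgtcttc
On either strand, TGTTTAC occurred in 1 of the 9 promoter entries of the 8 genes (Gimap8 has 2) and in 3.65% of all 32851 promoters. TGTTTNC occurred in 4 of the 9, those of Gimap3, Gimap4, Gimap6 and Gimap7, against 20.5% of all. TGTGGT occurred in 3, those of Gimap1, Gimap4 and Gimap7, against 16.8%. The KLF sequence CCNCNCCC occurred in 5, those of Gimap4, Gimap7 and Gimap9 and both of Gimap8, against 49.5%, and the ETS sequence CCGGAA in 0, against 14.9%. The Gimap7 promoter held TGTTTNC at -64 and the RUNX sequence at -79, counted with the start as 0. These are matches of letters and not binding sites.

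All values below are log2 values set against the Tconv average of the same probe set, because the deposited values are shifted so that these arrays average 0. They show which samples are higher or lower for a gene, but not which gene is more abundant. Differences are log2 differences ± SE from a limma fit of all arrays, and a gene was called at an adjusted p under 0.05 (Benjamini-Hochberg over 18193 genes). In sorted bulk cells, fewer cells of a type and less RNA per cell cannot be told apart. All 7 Treg markers examined, Foxp3 among them, were higher in wild-type Treg than in Tconv cells. Their mean was 4.60 to 4.92 on the wild-type and A384T arrays, 3.61 to 3.80 on the I363V arrays and 3.184 to 3.603 on the R397W arrays.

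**Figure D1:**
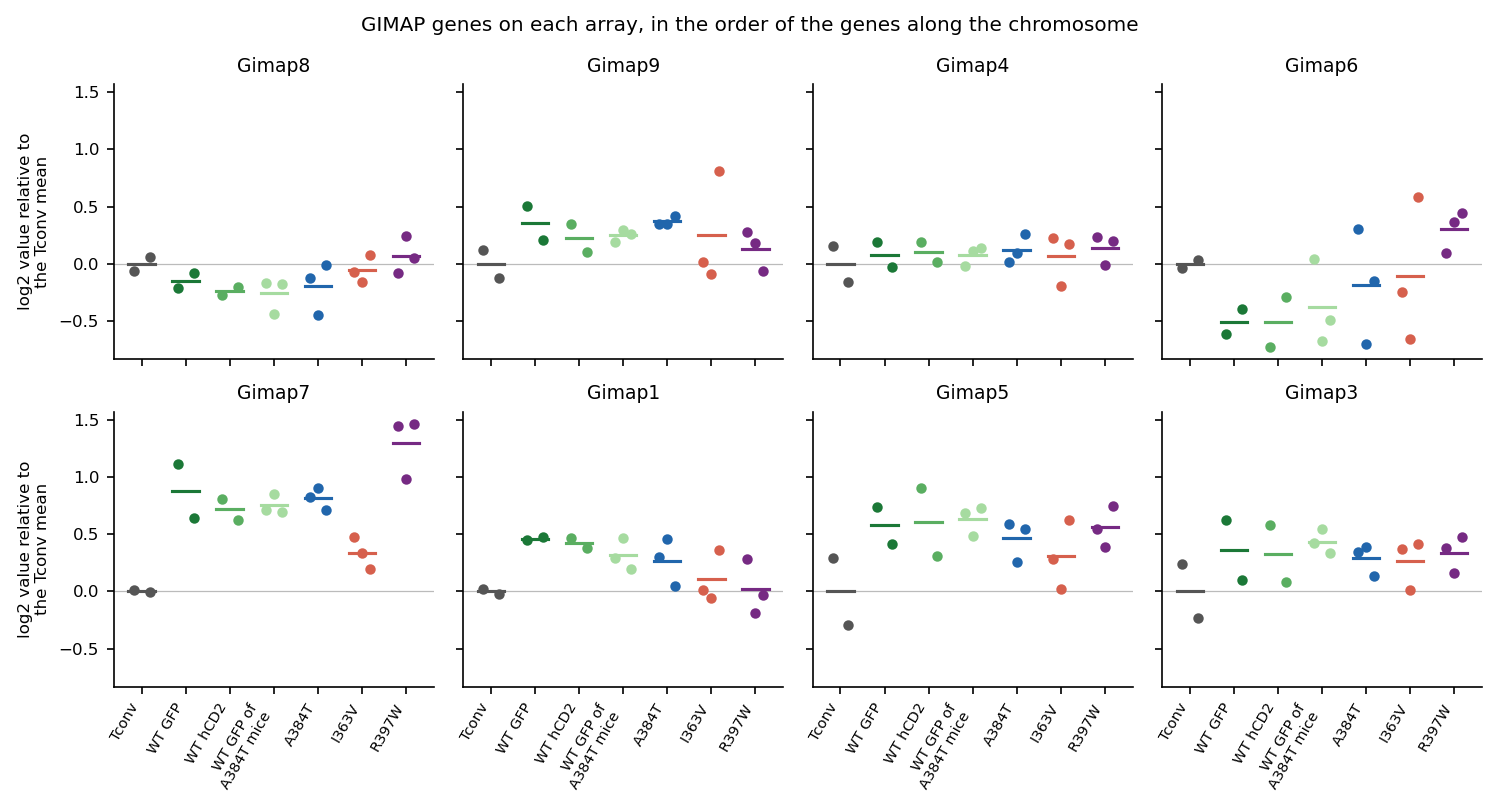
Log2 value of each GIMAP gene relative to the Tconv mean (vertical axis) on every array (points), with group means (bars), for the 7 groups of arrays. Gimap7, by its probe set of largest variance, lies above both Tconv arrays on all 16 Treg arrays. The 3 R397W arrays lie at 0.98 to 1.46 and the 3 I363V arrays at 0.19 to 0.48.

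The first comparison asked how the family differs between wild-type Treg cells and Tconv cells (WT GFP and WT hCD2, 4 arrays, against 2). Gimap7 was the called member. It was 1.74-fold higher in Treg cells (0.80 ± 0.15, limma adjusted p = 0.00457). Of all genes 5.84% were called, 3.81% higher and 2.03% lower, against 1 and 0 of the 8 members. The median difference of the members was 0.32, against -0.01 over all genes, and 6 of the 8 values were above 0. After group means were removed, WT GFP array 1 and WT hCD2 array 3 deviated together (r = 0.77 over all genes). Tconv array 1 did so with them (0.71 and 0.72), and with 2 arrays a group the other arrays mirror this. No label pairs these arrays, and the fit treated them as independent. A fit of WT GFP against Tconv with the replicate number as a block is given at the end.

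Gimap7, a GTPase that works as a dimer, was at 0.01 and -0.01 on the Tconv arrays. It was at 1.11 and 0.64 on the WT GFP arrays and at 0.81 and 0.63 on the WT hCD2 arrays, so the groups did not overlap. The second Gimap7 probe set, gave the same direction. It was at -0.15 and 0.15 in Tconv cells, 1.07 and 0.88 in WT GFP and 0.88 and 1.01 in WT hCD2 cells, a difference of 0.96 ± 0.21 (limma adjusted p = 0.0132 over 34945 probe sets). The call of the first probe set did not hold without Tconv array 2 (0.79 ± 0.20, adjusted p = 0.0554) or in a fit of these groups alone (adjusted p = 0.0675).

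Gimap1, which mature lymphocytes need to survive, was at 0.02 and -0.02 in Tconv, 0.45 and 0.47 in WT GFP and 0.46 and 0.38 in WT hCD2 cells. All 4 Treg arrays lay above the Tconv arrays, but the difference did not pass (0.44 ± 0.15, adjusted p = 0.134). Gimap5, the member whose loss causes T cell shortage, was at 0.29 and -0.29 in Tconv, 0.74 and 0.41 in WT GFP and 0.90 and 0.31 in WT hCD2 cells. The groups did not overlap, by a narrow margin, and the difference did not pass (0.59 ± 0.21, adjusted p = 0.149). Gimap3, a close relative of Gimap5 that has been tied to mitochondrial DNA inheritance in mice, ran from 0.08 to 0.62 on the wild-type Treg arrays and from -0.24 to 0.24 on the Tconv arrays (difference 0.35 ± 0.19, adjusted p = 0.428).

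Leaving out Tconv array 2 gave 0.30 for Gimap5 and 0.11 for Gimap3, and leaving out Tconv array 1 gave 0.88 and 0.58. Gimap3 was also at 0.22 without WT GFP array 1 or without WT hCD2 array 3. Gimap9 ran from 0.11 to 0.51 on the wild-type Treg arrays against -0.13 and 0.13 in Tconv cells (0.29 ± 0.20, adjusted p = 0.563, and 0.17 without Tconv array 2). Gimap4, which promotes the death of T cells and is not needed for their development, ran from -0.03 to 0.19 (0.09 ± 0.14, adjusted p = 0.846). Its 95% interval was -0.21 to 0.39. Both Gimap6, linked to autophagy, and Gimap8 had lower values in Treg cells. Gimap6 was at -0.61 and -0.40 in WT GFP and at -0.72 and -0.29 in WT hCD2 cells, below both Tconv arrays (-0.03 and 0.03), without a call (-0.51 ± 0.31, adjusted p = 0.514). Its second probe set, differed by -0.07 ± 0.10. Gimap8 was at -0.21 and -0.08 in WT GFP and at -0.27 and -0.20 in WT hCD2 cells (-0.19 ± 0.13, adjusted p = 0.585).

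**Figure D2:**
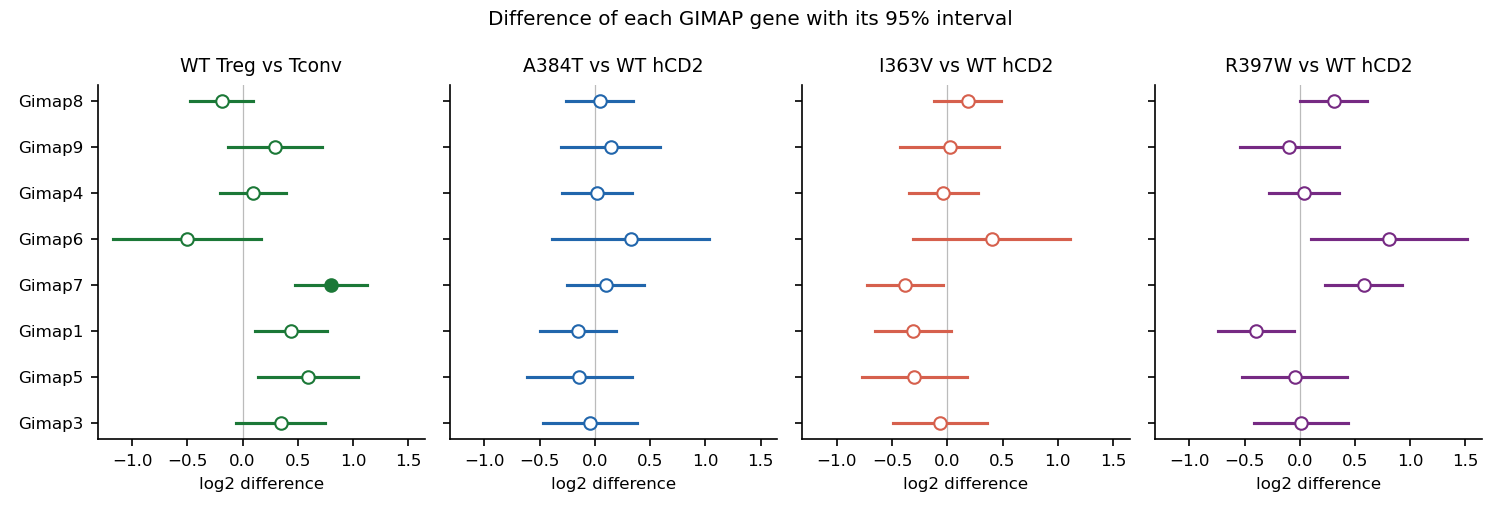
Log2 difference of each GIMAP gene (points) with its 95% interval (lines) in 4 comparisons. The filled point, Gimap7 in wild-type Treg against Tconv cells (0.80), is the called difference, and open points did not pass at an adjusted p under 0.05.

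The next comparisons asked what each Foxp3 mutation changes relative to WT hCD2 cells, which carry the same reporter (3 arrays against 2, with the WT hCD2 arrays shared). limma called 0 of the 8 members in each of them. In A384T cells 0 members had an unadjusted p under 0.05, against 8.07% of all genes, and 0.28% of all genes were called (0.137% higher, 0.143% lower). In I363V cells 1 member had an unadjusted p under 0.05 (all genes 8.94%), and 0.912% of all genes were called (0.231% higher, 0.682% lower). In R397W cells 4 members had an unadjusted p under 0.05 (all genes 11.7%), and 2.26% of all genes were called (0.715% higher, 1.55% lower).

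In A384T cells the differences of the 8 members ran from -0.15 (Gimap1) to 0.32 (Gimap6), with a median of 0.03. Gimap7 was at 0.83, 0.90 and 0.71 and overlapped WT hCD2 (0.10 ± 0.16, 95% interval -0.25 to 0.44). The second probe set pointed the other way, with A384T arrays at 0.48, 0.63 and 0.13, all below WT hCD2 at 0.88 and 1.01 (-0.53 ± 0.22, unadjusted p = 0.0282, limma adjusted p = 0.571). Against wild-type GFP+ cells from those animals, with 3 arrays a group, the members' differences ran from -0.17 (Gimap5) to 0.19 (Gimap6). limma called 0 of 8 there, also at an unadjusted p under 0.05, against 0.522% of all genes called (0.17% higher, 0.352% lower) and 5.03% with an unadjusted p under 0.05. Gimap7 stood at 0.71, 0.85 and 0.69 in the wild-type cells of A384T mice, and its difference was 0.06 ± 0.14 (95% interval -0.25 to 0.37). With the replicate number as a block, which pairs these arrays, 952 genes were called and still 0 members. The Gimap7 difference was then 0.06 ± 0.08.

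In I363V cells Gimap7 was at 0.48, 0.33 and 0.19, below both WT hCD2 arrays. The difference of -0.38 ± 0.16 did not pass (adjusted p = 0.48). The second probe set put the I363V arrays at 0.13, 0.00 and 0.79, also below WT hCD2 (-0.64 ± 0.22, adjusted p = 0.324). Gimap1 was at 0.01, -0.06 and 0.36 and likewise below both WT hCD2 arrays (-0.31 ± 0.16, adjusted p = 0.627). I363V array 3 stood apart in this group: it had the highest Gimap1 value, and Gimap9 at 0.82 against 0.02 and -0.09 on the other arrays. Gimap6 was at -0.25, -0.66 and 0.59 there, again highest on array 3 (0.40 ± 0.33 against WT hCD2, adjusted p = 0.832). Its second probe set put the I363V arrays at 0.13, 0.15 and 0.40, all above WT hCD2 at -0.08 and -0.10. That difference was 0.32 ± 0.10 (unadjusted p = 0.00774, limma adjusted p = 0.2775).

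R397W cells had the highest mean of Gimap7 among the groups on the first probe set, with arrays at 1.44, 0.98 and 1.46. WT GFP array 1 (1.11) lay above the lowest of them. All 3 lay above both WT hCD2 arrays, and the difference of 0.58 ± 0.16 did not pass (adjusted p = 0.0926). Without R397W array 2 it was 0.73 (adjusted p = 0.0212). The second probe set pointed the other way: R397W arrays were at 0.89, 0.40 and 0.72 against 0.88 and 1.01 in WT hCD2 cells (-0.28 ± 0.22, adjusted p = 0.758). The direction of Gimap7 between R397W and wild-type Treg cells thus depends on the probe set.

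Gimap1 was at 0.28, -0.19 and -0.03 in R397W cells, below both WT hCD2 arrays and near the Tconv arrays (-0.40 ± 0.16 against WT hCD2, adjusted p = 0.309). Gimap6 was at 0.10, 0.37 and 0.44, above both WT hCD2 arrays (0.81 ± 0.33, adjusted p = 0.324), while its second probe set moved by 0.22 ± 0.10. Gimap8, whose values followed those of the first Gimap6 probe set over all arrays, was at -0.08, 0.24 and 0.06 (0.31 ± 0.14, adjusted p = 0.419). Gimap3 (0.01 ± 0.20), Gimap4 (0.04 ± 0.15), Gimap5 (-0.05 ± 0.22) and Gimap9 (-0.09 ± 0.21) had differences smaller than their SE.

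The mutants were also compared with each other, 3 arrays against 3, over 3 pairs. Gimap7 was 1.94-fold higher in R397W than in I363V cells (0.96 ± 0.14, limma adjusted p = 0.0198). The highest I363V array was at 0.48 and the lowest R397W array at 0.98. It was the only member of 8 called, where 0.0824% of all genes (15) were called, 0.0605% higher and 0.022% lower. A384T lay between them: its difference was 0.48 ± 0.14 from I363V (adjusted p = 0.189) and -0.48 ± 0.14 from R397W (adjusted p = 0.0964), with no overlap on either side. On the second probe set these differences were 0.11 ± 0.20 and -0.26 ± 0.20, and the arrays overlapped on both sides. limma called 0 members in those comparisons, and 1 member, Gimap7, had an unadjusted p under 0.05 in each, against 1.14% (0.885% higher, 0.253% lower) and 3.13% (2.22% higher, 0.907% lower) of all genes called. An unadjusted p under 0.05 was found for 8.65% and 15.98% of all genes. The R397W against I363V call rested on the first probe set, since the second gave 0.36 ± 0.20 (adjusted p = 0.663). It also did not hold in a fit of these groups alone (adjusted p = 0.563) and was lost without I363V array 2 (adjusted p = 0.0857) or 3 (0.0548) and without R397W array 1 (0.0865) or 3 (0.0659).

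**Figure D3:**
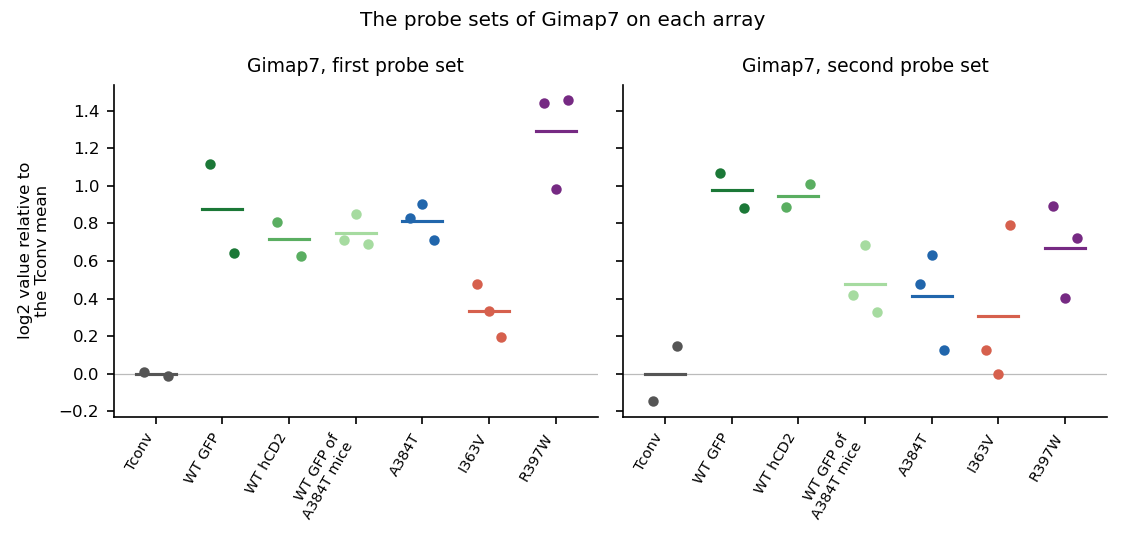
Log2 values of the probe sets of Gimap7 relative to the Tconv mean (vertical axis) on every array (points) with group means (bars). On both, wild-type Treg arrays of wild-type mice lie above the Tconv arrays, but the R397W mean lies above the WT hCD2 mean on the first (1.29 against 0.72) and below it on the second (0.67 against 0.95).

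Set against Tconv cells, Gimap7 was called in A384T (0.81 ± 0.16, adjusted p = 0.00574) and R397W cells (1.29 ± 0.16, adjusted p = 0.000297) and not in I363V cells (0.33 ± 0.16, adjusted p = 0.439). On this first probe set all 3 arrays of each mutant lay above both Tconv arrays. It was the called member of 8 in the first 2 of these, where 6.52% (4.14% higher, 2.38% lower) and 2.02% (1.06% higher, 0.967% lower) of all genes were called. In I363V cells limma called 0 of 8, also at an unadjusted p under 0.05, against 2.51% of all genes called (1.48% higher, 1.02% lower) and 11.96% with an unadjusted p under 0.05. The Tconv arrays are shared by these comparisons. The second probe set was not called in them: its differences were 0.41 ± 0.22 in A384T, 0.31 ± 0.22 in I363V and 0.67 ± 0.22 in R397W cells (adjusted p = 0.363, 0.692 and 0.22). On it A384T array 3 (0.129) and I363V arrays 1 and 2 (0.125 and 0.001) lay below Tconv array 2 (0.147). The R397W arrays (0.40 to 0.89) lay above both Tconv arrays there. The A384T call was lost without Tconv array 2 (0.80 ± 0.21, adjusted p = 0.0607), and the R397W call in a fit of R397W and Tconv arrays alone (adjusted p = 0.0951). By group means of the first probe set the order was Tconv, I363V (0.33), WT hCD2 (0.72), WT GFP of A384T mice (0.75), A384T (0.81), WT GFP (0.88) and R397W (1.29). The 4 groups from WT hCD2 to WT GFP overlap and span 0.16.

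Among wild-type Treg cells the family moved little. Between WT hCD2 and WT GFP cells the members' differences ran from -0.16 (Gimap7) to 0.03 (Gimap5). Between WT GFP cells of A384T mice and of wild-type mice they ran from -0.14 (Gimap1) to 0.13 (Gimap6). limma called 0 of the 8 members in either comparison, also at an unadjusted p under 0.05, where 2.54% and 2.60% of all genes had such a p and 0% of all genes were called. On the second Gimap7 probe set, however, the wild-type cells of A384T mice were at 0.42, 0.69 and 0.33, below all 4 arrays of wild-type mice (-0.50 ± 0.22 against WT GFP, unadjusted p = 0.0387, adjusted p = 1).

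The members did not form a single block of expression. Over the 18 arrays, 20 of 28 pairs of members had a Pearson correlation above 0, with a median of 0.20 and a range from -0.70 to 0.81. Gimap3 and Gimap5, the last neighbours in the block, had the highest value (r = 0.81, Spearman 0.70, and r = 0.60 without the 2 arrays farthest in Gimap3). Gimap6 and Gimap8 followed (r = 0.79, Spearman 0.81, and 0.76 without the farthest arrays), and Gimap1 ran against Gimap8 (the lowest value). The second Gimap6 probe set had r = 0.21 with Gimap8 (Spearman 0.31) and r = 0.35 with the first Gimap6 probe set (Spearman 0.30). The second Gimap7 probe set followed Gimap1 (r = 0.73, Spearman 0.66) more closely than the first Gimap7 probe set (r = 0.58, Spearman 0.51). After group means were removed these values were 0.87 and 0.27, so the probe sets of Gimap7 share little of their spread within groups. These correlations describe arrays that share groups and processing, and carry no p. Cross-hybridisation between these related genes was not analysed here.

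Part of the spread of several members within groups moved with the 5' minus 3' signal of a control transcript on the same arrays. The 5' minus 3' signal of the beta-actin control probe sets was -0.36 on Tconv array 2, -0.52 on I363V array 2 and -0.70 on R397W array 2, and 0.27 to 0.88 on the other 15 arrays. Gimap4 was lowest on these arrays within each of the 3 groups (-0.16, -0.19 and -0.01), and so was Gimap3 (-0.24, 0.01 and 0.16). So were Gimap5 (-0.29, 0.02 and 0.38) and Gimap1 (-0.02, -0.06 and -0.19). The second Gimap4 probe set was at 0.001, -0.20 and 0.10 on them, the highest of its group on R397W array 2. Over 18 arrays the correlation with this signal was 0.82 for Gimap4 (Spearman 0.75), 0.70 for Gimap3 (0.59), 0.66 for Gimap5 (0.58) and 0.37 for Gimap7 (0.38). Without the 2 arrays farthest in each gene it was 0.67, 0.50, 0.36 and 0.27. Over 18 arrays it was 0.60 for Gimap1, 0.53 for Gimap9, -0.18 for Gimap6 and -0.45 for Gimap8. The second Gimap4 probe set gave 0.09 (Spearman 0.08). After group means were removed the correlation was 0.90 for Gimap4 and 0.35 for its second probe set. It was then 0.67 for Gimap3, 0.62 for Gimap5, 0.55 for Gimap7, 0.53 for Gimap1, 0.44 for Gimap9, 0.03 for Gimap6 and -0.29 for Gimap8. The same signal of the Gapdh control probe sets did not single out these arrays together: it was lowest on I363V array 2 (-1.29), but 0.40 on R397W array 2, above R397W array 3 (-0.26), and lower on A384T array 1 (-0.27) than on Tconv array 2 (-0.18). Over 18 arrays the Gapdh signal had a correlation of 0.68 with Gimap9, 0.61 with Gimap4, 0.53 with Gimap1, 0.47 with Gimap5 and 0.41 with Gimap3. It was 0.27 for Gimap7, 0.002 for Gimap6 and -0.07 for Gimap8. The second probe sets gave 0.59 for Gimap7, 0.54 for Gimap4 and 0.10 for Gimap6. After group means were removed it was 0.82 for Gimap9, 0.69 for the second Gimap4 probe set and -0.07 for Gimap7. The part of either signal in the differences was not tested. With I363V array 2 and R397W array 2 left out, Gimap7 differed from WT hCD2 by 0.73 in R397W cells (limma adjusted p = 0.0279). In R397W cells Gimap6 (0.77), Gimap1 (-0.30) and Gimap8 (0.22) were then closer to WT hCD2 than with all arrays (0.81, -0.40 and 0.31). None of these 3 was called. In I363V cells Gimap7 stayed at -0.38. The second Gimap7 probe set was not refitted without the 2 arrays. On it R397W arrays 1 and 3 were at 0.89 and 0.72, against 0.88 and 1.01 in WT hCD2 cells.

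**Figure D4:**
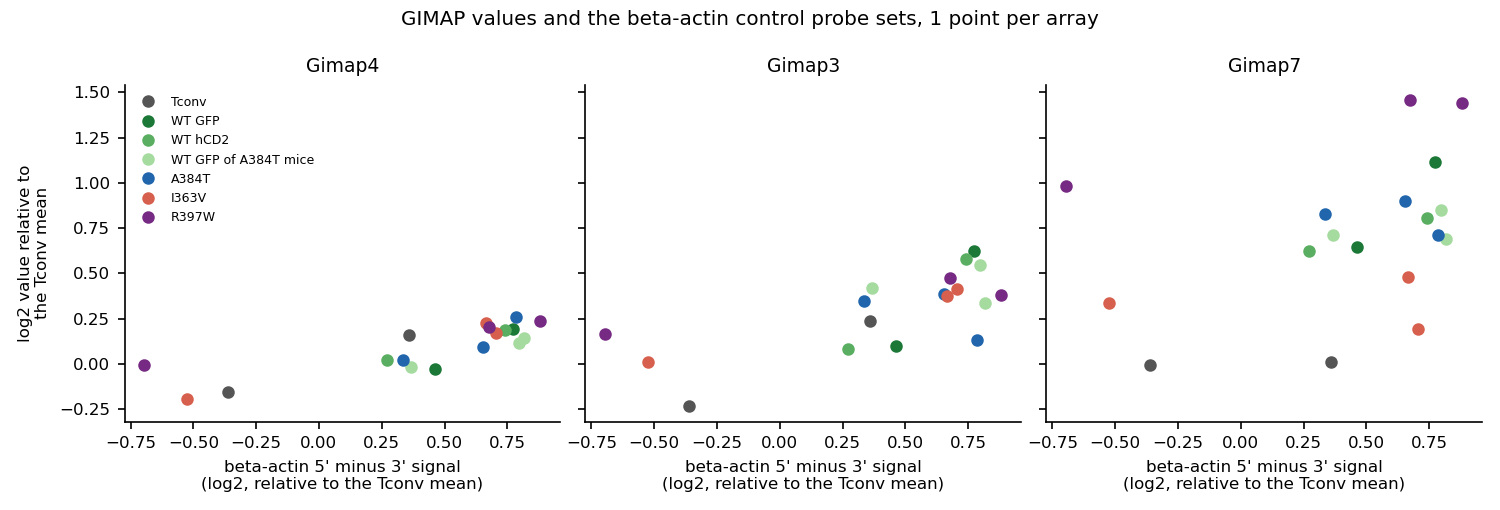
Log2 value of Gimap4, Gimap3 and Gimap7 relative to the Tconv mean (vertical axis) against the 5' minus 3' signal of the beta-actin control probe sets (horizontal axis, log2), 1 point per array, coloured by group. The 3 arrays left of 0 have the lowest values of their groups for Gimap3 and for the Gimap4 probe set shown, the first.

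Genes of related functions were read beside the family from lists. Of 14 measured Bcl2 family genes, 5 were called higher in wild-type Treg than in Tconv cells and 0 lower (median 0.75), where 3.81% of all genes were called higher and 2.03% lower (median -0.01). The 4 largest among the called genes were the pro-apoptotic BH3-only genes Pmaip1 (1.38 ± 0.33), Bad (0.96 ± 0.27) and Bid (0.94 ± 0.18) and the pro-survival gene Bcl2l2 (0.87 ± 0.08). The pro-survival gene Bcl2 itself had a difference of 1.02 ± 0.33 that did not pass (adjusted p = 0.0984). Against WT hCD2, Bcl2l2 fell in I363V (-0.53 ± 0.09) and, with Pmaip1 (-1.65 ± 0.35), in R397W cells (-0.40 ± 0.09), while limma called 0 of 14 in A384T cells. Of all genes 0.682%, 1.55% and 0.143% were called lower in I363V, R397W and A384T cells. Of 14 ATG8 and autophagy genes, 1, Gabarapl1, was called higher in Treg cells (1.94 ± 0.35, against 3.81% of all genes), and Gabarapl2, the ATG8 protein known to bind Gimap6, differed by 0.26 ± 0.25 without a call. limma called 0 of the 14 in each mutant against WT hCD2. Of 16 naive T cell quiescence genes 1, the IL-7 receptor gene Il7r, was called lower in Treg cells (-1.43 ± 0.30, against 2.03% of all genes), and 0 were called in each mutant against WT hCD2.

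The nearest 5 measured protein-coding genes on each side of the block gave 1 call in each direction between wild-type Treg and Tconv cells, where 5.84% of all genes were called. Lrrc61, before the block, was 0.91 ± 0.17 higher, and Tmem176a, after it, was 1.08 lower (-1.08 ± 0.28, adjusted p = 0.0304). Lrrc61 fell in R397W against WT hCD2 cells (-0.81 ± 0.18, adjusted p = 0.0269).

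The mean profile of the 8 members, each scaled to the same spread, was most like those of Prpf31, a splicing factor (r = 0.89 over 18 arrays), and H2-D1, an MHC class I gene (0.85). Stox1 (0.85), the CD3 chain gene Cd3d (0.84) and Cdc26, a subunit of the anaphase-promoting complex (0.84), followed. Over the 16 Treg arrays alone the values were 0.88, 0.82, 0.79, 0.76 and 0.81. These ranked 1, 16, 29, 46 and 17 among the genes outside the family. Gimap5 (0.88), Gimap3 (0.78) and Gimap4 (0.76) lay closest to this mean, and Gimap8 (0.04) farthest from it.

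Markers of other cells were read beside these results as means over each list. The 7 B cell markers ran from -0.19 to 0.19 on the Tconv arrays, from 0.00 to 0.23 on the WT GFP and WT hCD2 arrays and from -0.07 to 0.36 on the arrays of A384T mice. They ran from -0.31 to -0.12 in I363V and from 0.03 to 0.48 in R397W cells. The mean of the B cell markers was thus lower in I363V than in R397W cells, as was the first Gimap7 probe set. limma called 0 of these 7 markers there, where only 0.0824% of all genes were called. The part of the B cell markers in the Gimap7 difference between these mutants was not tested. In wild-type Treg against Tconv cells 1 B cell marker was called higher and 0 lower, against 3.81% and 2.03% of all genes. Against Tconv, 1 was also called higher in A384T, I363V and R397W cells (all genes 4.14%, 1.48% and 1.06%), and 1 lower in I363V cells (1.02%). Against WT hCD2, 1 was called lower in I363V cells (all genes 0.682%). Their part in the Gimap7 differences there was not tested either. The 6 CD8 T and NK cell markers ran from -0.08 to 0.08 on the Tconv arrays and from -0.33 to -0.16 on the WT GFP and WT hCD2 arrays. Of them 2 were called lower in wild-type Treg than in Tconv cells, against 2.03% of all genes. Their part in the Gimap7 difference was not tested. They ran from -0.43 to -0.30 in I363V and from -0.46 to -0.29 in R397W cells. The 8 stromal and endothelial markers stayed between -0.16 and 0.08 on all 18 arrays. The 8 myeloid markers ran from -0.25 to 0.25 on the Tconv arrays and from -0.25 to -0.06 on the WT GFP and WT hCD2 arrays. They ran from -0.68 to -0.14 in the wild-type cells of A384T mice and from -0.84 to -0.30 in A384T cells. In I363V cells they ran from -0.51 to -0.36, and they were lowest in R397W cells (-1.07 to -0.89). limma called 1 of the 8 lower in R397W than in I363V cells, against 0.022% of all genes, and their part was not tested. Of 6 dendritic cell markers, 2 were called lower in wild-type Treg than in Tconv cells, against 2.03% of all genes. Whether any marker is at background cannot be read from centred values.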

How the data were processed

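Total RNA was labelled with the GeneChip two-cycle reagents, and the authors deposited log2 values made with RMA, per the labels and the submitters' processing notes. Its software, version and probe annotation are not given in the sources used here. The log base is the convention of RMA. At every probe set the Tconv arrays sum to at most 1.0e-06, so levels are lost and no filter on dim probe sets was possible. Of 45101 probe sets, 34945 had a single gene in the chip annotation, 932 had several genes, 9160 had no gene and 64 were controls. Array medians over the 18193 genes ran from -0.04 to 0.04.

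Group means of all 18 arrays were fitted with limma 3.58.1 in R 4.3.3 (11 residual and 3.3 prior degrees of freedom), two-sided, and tested on simulated data. Tables used Python 3.11.15, numpy 2.4.6, pandas 2.3.3 and scipy 1.17.1, and plots matplotlib 3.10.9. Members and lists were chosen with earlier results of these data known. All 8 members are named, with at most 4 called genes a list and comparison. The alternatives were another probe set rule, only the groups compared, median centring, quantile normalization, robust moderation, leaving out 25% of genes by variance, each array left out, another wild-type control and the replicate number as a block. Numbers pair A384T with WT GFP arrays of A384T mice: deviations from group means correlated at 0.69, 0.65 and 0.58 for equal numbers and -0.455 to -0.16 for others.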

Additional observations from a re-analysis of the deposited data

Results flagged for a closer look

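Gimap7 differed between mutants that were set against the same wild-type arrays: it was 0.96 ± 0.14 higher in R397W than in I363V cells (limma adjusted p = 0.0198). The second probe set gave 0.36 ± 0.20 there (adjusted p = 0.663), and the call held in 7 of 15 alternatives. The second Gimap7 probe set, outside the main measurement, lay above the Tconv arrays in wild-type Treg cells by 0.96 ± 0.21 (limma adjusted p = 0.0132 over 34945 probe sets).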

How the results depend on the processing

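Alternatives with the other probe sets, and without I363V array 2 and R397W array 2, were chosen after seeing the data. In A384T and I363V against WT hCD2, A384T against the wild-type cells of its mice, A384T against I363V, I363V against Tconv and both comparisons among wild-type Treg cells, 0 members were called under every alternative run. Leaving out each array in turn gave 0 to 1 members called in wild-type Treg against Tconv, R397W against WT hCD2, A384T against R397W, R397W against I363V and A384T against Tconv, and 1 in R397W against Tconv. Fits of only the groups compared called 0 members in wild-type Treg against Tconv, R397W against I363V and R397W against Tconv. Quantile normalization called 1, Gimap7, in R397W against WT hCD2 (0.85, adjusted p = 0.00511) and A384T against R397W (-0.81), as did leaving out I363V array 2 and R397W array 2 (0.73 and -0.64).

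The mean of a gene's probe sets called 0 in R397W against I363V (0.66, adjusted p = 0.135). The other probe sets called 0 in R397W against I363V, A384T against Tconv and R397W against Tconv. The cause of these losses was not tested. A group left with 1 array was assumed to vary like the others. Gimap7 changed direction with the other probe set in A384T (-0.53) and R397W (-0.28) against WT hCD2 and in A384T against the wild-type cells of its mice (-0.065), and with the mean of probe sets in A384T against WT hCD2 (-0.22) and in the same mice (-0.0014). Leaving out each array in turn gave -0.36 to 0.11 for WT GFP of A384T mice against WT GFP and -0.40 to 0.072 for WT hCD2 against WT GFP, with the direction changed without WT GFP array 1. Gimap4 in wild-type Treg against Tconv cells ran from -0.065 (without Tconv array 2) to 0.25 and was -0.022 with its other probe set.

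With the replicate number as a block, 0 members were called in R397W against I363V, A384T against Tconv and R397W against Tconv. In WT GFP against Tconv the block called 4: Gimap1 (0.46), Gimap5 (0.58) and Gimap7 (0.88) higher and Gimap6 (-0.51) lower, where 3347 genes were called in all. Equal numbers deviated together in these groups (0.71, which 2 arrays a group mirror), and no label pairs them. In A384T against the wild-type cells of its mice the block changed no call of a member, though 952 genes were called in all, against 95 in the main fit. Background correction and scan blocks were not run, since scanner files were not used.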
